A study of Mus musculus with 4 samples.

Results

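The 40 genes described here encode actin, the proteins that assemble, cut, bundle and anchor its filaments, and the motors and switches of cell movement. They were taken by gene name from the deposited table, which has 24497 mouse gene rows. All 40 had a row, and all 40 were among the 11919 genes tested, which needed at least 1 TPM (abundance corrected for transcript length and library size) in at least 2 libraries. The question was how these genes differ between leukaemic cells made from wild-type and from Tet2 knockout marrow.

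Both groups were leukaemic cells driven by NRAS and AE9a, a truncated form of the AML1-ETO fusion, put into bone marrow stem cells. In the WT group the marrow came from wild-type mice and in the Tet2 KO group from Tet2-/- mice. Both lines were cultured with SCF at 50 ng/ml, IL-3 and IL-6 at 10 ng/ml each, G418 at 1 mg/ml and puromycin at 2 µg/ml, then transplanted. Recipients were CD45.1+ C57 B6.SJL mice aged 6 to 8 weeks that had received 900 cGy, and cells with the donor marker CD45.2 were enriched from spleen without further treatment. Each group has 2 RNA-seq libraries. The Tet2 allele, the promoters of the oncogenes, and whether replicates are separate mice are not given in the sources used here. Variation between libraries of a group may therefore be technical. The WT libraries were averaged for the main test, so its p-values draw only on spread between the 2 Tet2 KO libraries, pooled in part over genes.

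Actin monomers join into filaments that push the cell edge outward, and each step has its own proteins. Profilin and the thymosins hold monomers, the Arp2/3 complex starts branches when WASP or WAVE proteins switch it on, and Ena/VASP proteins lengthen filaments. Cofilin and gelsolin cut them, myosin II pulls on them, and talin, vinculin and the ERM proteins tie them to the membrane. Blood cells need this machinery to crawl, adhere and engulf.

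The libraries differed in ways that bear on every value below. Estimated depth was 18.5 to 23.6 M reads. The WT libraries differed from each other by about read sampling noise (variance ratio 1.10, robust estimate), were averaged and were counted as 1 sample, whereas the Tet2 KO libraries differed more (ratio 5.74). Without robust estimation the ratios were 2.05 and 38.7, and over the 197 and 210 most abundant genes of each check the robust ratios were 1.29 and 185. WT thus counts as n = 1 and Tet2 KO as n = 2, and values are given for each library in the order of replicates. The error after a log2 change is limma's standard error. It draws on other genes of similar abundance, so it is not a gene's own replicate spread. ERCC spike-ins, synthetic RNAs added as a reference, took 4.62% to 4.66% of TPM in WT, against 2.95% to 3.19% in Tet2 KO. Scaling each library to its ERCC total moved the median log2 change of all tested genes from -0.12 to 0.43, a shift of 0.55, so small changes take their sign from the scale. RNA of the targeted gene, Tet2, was not lower in the knockout (log2 change 0.58 ± 0.19, limma adjusted p = 0.0171): WT libraries had 43.5 and 43.7 TPM, and those labelled Tet2 KO had 63.7 and 68.1 TPM. One value per gene cannot show whether a part was deleted, so every direction below rests on the labels. Xist RNA also differed with the labels, at 0.34 TPM in both WT libraries against 86.05 and 28.23 TPM in Tet2 KO.

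The labelled cell type, AML cells, was set against marker genes. Ptprc (CD45) stood at 292 to 413 TPM and the myeloid factor Spi1 at 508 to 662 TPM, whereas the progenitor receptor Kit was at 0.81 to 2.20 TPM. Of 16 neutrophil genes 15 rose, with a summed level of 1727 and 1764 TPM in WT against 107651 and 86671 TPM in Tet2 KO. Of 11 tested monocyte and macrophage genes 8 fell (3599 and 3603 against 1727 and 1759 TPM summed), as did 6 of 6 tested dendritic cell genes (432 and 436 against 63.7 and 44.4 TPM). Summed levels over the 4 libraries were 3.78 to 7.83 TPM for T cell genes, 13.5 to 20.8 TPM for B and plasma cell genes and 0.35 to 1.36 TPM for NK cell genes. Of these, 1 of 4 tested T cell genes fell, 2 of 3 B and plasma cell genes rose and 1 fell, and 0 NK cell genes were abundant enough to test. Erythroid genes summed to 2.44 to 43.2 TPM and megakaryocyte and platelet genes to 6.69 to 22.5 TPM, with 1 of 2 and 3 of 4 tested genes higher and 1 of the latter lower. Of 4 tested smooth muscle, fibroblast and endothelial genes 3 rose. Of 8 progenitor and myeloid genes 4 rose (Itgam, Lyz2, Kit and Runx1t1) and 1 fell (Cd34). Runx1t1, the gene of the ETO part of the fusion, rose by 2.43 ± 0.23 on the log2 scale (limma adjusted p = 1.23e-06). Its TPM was 31.6 and 30.9 for the WT libraries, while the Tet2 KO libraries reached 146 and 205. Whether RNA of the AE9a construct adds to this value was not tested. Smooth muscle, fibroblast and endothelial genes summed to 60.2 to 93.3 TPM, mostly from Pecam1 at 51.6 to 72.3 TPM, with Myl9 listed at 0 throughout and Myh11 and Cnn1 at or under 0.18 TPM. The part of the neutrophil and monocyte genes in the changes below was not tested, and in bulk samples fewer cells of a type and less RNA per cell cannot be told apart.

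The actin machinery as a whole took a similar share of RNA in both groups while single components moved far apart. The 40 genes summed to 41763 and 41533 TPM in WT, against 46477 and 42458 TPM in Tet2 KO, which is 4.18% and 4.15% against 4.65% and 4.25% of all TPM. With 2 libraries a group no exact test of such a sum can reach 0.05, and none was made. In limma's test (threshold: Benjamini-Hochberg adjusted p of 0.05 over all tested genes), 6 members rose and 6 fell, so 30.0% passed, against 48.8% of all tested genes (22.1% higher and 26.7% lower). Among the 4908 tested genes at least as abundant as the least abundant member, 52.8% passed (25.4% higher and 27.4% lower). The members' median log2 change was 0.09 beside -0.12 for all tested genes, and 26 of 40 lay within 0.5 of no change. The risers were Cotl1, Vcl, Ezr, Tmsb4x, Myl12a and Arpc1a, and the fallers were Evl, Tmsb10, Cyfip1, Hcls1, Lsp1 and Dock2. Scaled to ERCC, 16 members passed as higher and 2 as lower, against 41.5% higher and 12.5% lower of all tested genes, with a members' median of 0.69. The 6 rises and the falls of Evl and Tmsb10 passed on the TPM scale and under each of the 3 other scalings tried.

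Shares of all tested genes called under the other settings, beside the members' counts, were as follows. With ERCC scaling 54.0% of all genes passed. A pseudocount of 0.1 gave 48.6% (22.3% higher and 26.3% lower) and a filter of 5 TPM 50.4% (22.3% and 28.1%), and both left 6 members higher and 6 lower. Median centring called 47.5% of all genes (24.0% and 23.5%) and 7 higher and 4 lower members. Quantile normalization called 42.5% (21.1% and 21.4%) and 6 higher and 5 lower members, and plain limma 42.6% (19.3% and 23.3%) and 5 and 4. Without the filter on low values limma called 2.25% of all genes (0.662% higher and 1.59% lower) and 0 members. Before adjustment 12 members were under 0.05, but not all of them were among those called in the main test. Taking both WT libraries as samples, 67.4% passed (29.5% higher and 37.9% lower) beside 13 higher and 9 lower members, and with the replicate block added 66.8% (29.3% and 37.4%) beside 12 and 9. Leaving out WT replicate 1 gave 49.4% (22.5% and 26.9%) beside 6 and 6 members, and WT replicate 2 gave 49.0% (22.2% and 26.8%) beside 7 and 6. Leaving out Tet2 KO replicate 1, with both WT libraries as samples, gave 78.1% (36.3% and 41.8%) beside 18 higher and 16 lower members, and Tet2 KO replicate 2 gave 80.9% (33.3% and 47.6%) beside 22 and 16. The members' share stayed below that of all genes in each of these settings except the last pair, where it was above.

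**Figure D1:**
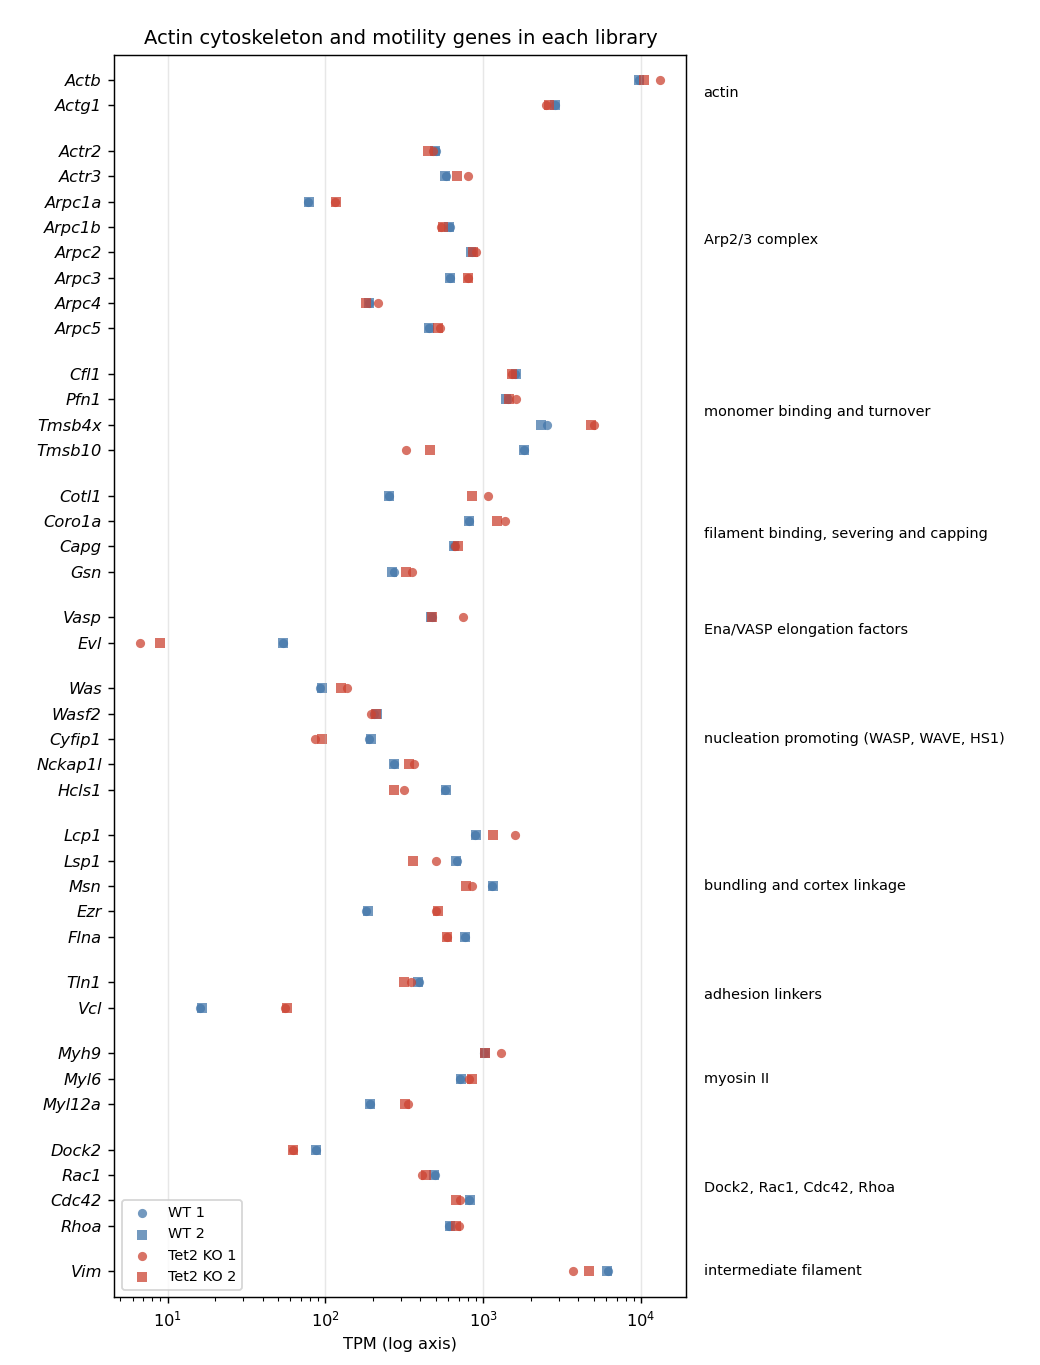
TPM of each of the 40 genes (log axis) in the 4 libraries, arranged by the role of the encoded protein; circles and squares are replicates 1 and 2 of each group. Blue WT symbols nearly coincide, while Tmsb10, Evl, Vcl, Cotl1 and Ezr show clear gaps between the groups, and Actb, Vasp and Lcp1 show a gap between the Tet2 KO libraries.

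Groups did not overlap in 37 of 40 members, 21 with Tet2 KO above and 16 below. This share, 92.5%, stands beside 87.0% of all tested genes (38.4% above and 48.6% below). The median gap between the libraries of a pair was 0.976% of their mean in WT and 7.41% in Tet2 KO. Only Tmsb4x had a WT gap above 5%, at 9.17%, and 9 members had a Tet2 KO gap above 20%. The standard error of a member's log2 change ran from 0.19 for Dock2 to 0.38 for Actb, the most abundant member. For Arpc3, whose Tet2 KO libraries were 0.245% apart, it was 0.26.

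Actin itself was among the most abundant RNAs. Actb, which encodes beta-actin, had 9679 and 9702 TPM in WT, against 13265 and 10397 TPM in Tet2 KO, ranking between 4 and 6 among all mouse genes. The Tet2 KO libraries both lay above WT, but they were 24.2% apart, and the log2 change of 0.28 ± 0.38 did not pass (limma adjusted p = 0.574). Actg1, gamma-actin, stood at 2866 and 2851 TPM against 2502 and 2601 TPM (log2 change -0.16 ± 0.31, adjusted p = 0.684). The sign of neither is fixed, since Actg1 was positive with ERCC scaling and quantile normalization and Actb was negative with quantile normalization. The ratio of Actb to Actg1 was 3.38 and 3.40 in WT and 5.30 and 3.997 in Tet2 KO, a log2 difference of 0.44, and quantile normalization turned it to -0.32. Of the 50-base windows of the longest Actg1 transcript 56.7% occur in transcripts of other genes, foremost Gm12715 and Gm8399, so its value is uncertain.

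Promoters were searched for the CArG box, the site of serum response factor (SRF), which drives actin genes in many cells. RefSeq promoter windows of GRCm38.p6, 250 bases before to 50 after a start, were matched for 34 of the 40 genes. Actb, Cotl1, Cyfip1, Lsp1, Nckap1l and Rac1 had no matched window and were not searched. A CArG box, whose pattern reads the same on both strands, was in 4 of 43 member windows and in 1.63% of all 32851 windows. It lay at position -227 from the start in Vcl, -90 in Actg1 and -50 in Myl6. Myl6 has 2 windows, and the box is in the one from 128492960 to 128493259 on chromosome 10, inside the gene's annotated bounds (128490860 to 128494145), while the window nearest the outer start (128493837 to 128494136) has 0. Each box whose stretch did not touch an annotated exon is shown, whatever the change of its gene. Vcl rose in Tet2 KO, while Actg1 and Myl6, with the same kind of box, did not pass the test. Capitals mark the box, and each sequence runs 5′ to 3′ on the gene's strand (Vcl, chr14:20929148-20929205, plus strand; Actg1, chr11:120348551-120348610, minus strand; Myl6, chr10:128493025-128493084, minus strand).
Vcl: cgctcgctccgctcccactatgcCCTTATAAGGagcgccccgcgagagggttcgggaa
Actg1: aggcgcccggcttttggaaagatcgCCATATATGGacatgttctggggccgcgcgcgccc
Myl6: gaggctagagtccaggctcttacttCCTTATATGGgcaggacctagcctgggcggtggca
The stretch around the fourth box, in the Arpc4 window, overlaps an annotated exon and is not printed. A match describes the letters only. Member windows held a median of 20 CpG dinucleotides, against 7 over all windows. The figures over all windows, here and for the box, cover 27025 genes whether or not they were tested here. No figure over tested genes alone was made.

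The pair of beta-thymosins changed in opposite directions. These are small peptides that bind actin monomers and keep them from joining filaments. Tmsb4x (chromosome X, 167207093 to 167209315) had 2534 and 2312 TPM in WT, against 5054 and 4794 TPM in Tet2 KO. Both Tet2 KO libraries were clearly above both WT libraries, and the gene rose by a log2 change of 1.02 ± 0.33 (adjusted p = 0.0166). Its paralog Tmsb10 (chromosome 6, 72957347 to 72958748) stood at 1800.4 and 1800.7 TPM against 326 and 462 TPM. It fell by 2.21 ± 0.28 on the log2 scale (adjusted p = 1.20e-05), with the Tet2 KO libraries 34.4% apart but far below WT. The ratio of Tmsb4x to Tmsb10, which a single scaling factor per library cannot move, went from 1.41 and 1.28 in WT to 15.5 and 10.4, a 9.43-fold difference. Of the Tmsb10 windows 43.5% recur in other genes, foremost Gm9844 and Gm3788, so its value is uncertain, and 0 of the Tmsb4x windows do. Tmsb4x, Was, Msn and Flna are the 4 members on chromosome X, and Xist had 0.34 TPM in both WT libraries, with 86.0 and 28.2 TPM for Tet2 KO. Of the 4 genes Tmsb4x and Was had positive and Msn and Flna negative changes. The Xist difference follows the group labels. Its part in the values of these or any other genes cannot be told apart from the labels and was not tested.

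Other monomer and turnover factors did not pass. Cfl1, the filament-severing cofilin, stood at 1594 and 1617 TPM against 1533 and 1515 TPM (log2 change -0.08 ± 0.29). Pfn1, profilin, which feeds monomers to growing ends, stood at 1429.6 and 1392 TPM against 1605 and 1449 TPM (0.11 ± 0.29). The sign of Cfl1 turned with ERCC scaling, quantile normalization and median centring.

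Among proteins that sit on filaments Cotl1 moved most. Cotl1 (chromosome 8, 119809222 to 119840544), a coactosin-like relative of cofilin that binds filaments, had 252 and 253 TPM in WT, against 1080.3 and 851 TPM in Tet2 KO. Its Tet2 KO mean of 966 ± 162 TPM (SD, n = 2) was 3.82-fold higher, with groups far apart although the Tet2 KO libraries were 23.7% apart (log2 change 1.92 ± 0.26, adjusted p = 1.99e-05). Relative to Cfl1, Cotl1 went from 0.158 and 0.156 to 0.705 and 0.562. Coro1a, coronin-1A, a leukocyte filament regulator, stood at 811 and 814 TPM against 1367 and 1224 TPM. Its log2 change of 0.67 ± 0.28 did not pass on the TPM scale (adjusted p = 0.0555) but did with ERCC scaling and median centring. Capg, a capping protein, was at 655 and 650.1 TPM against 664 and 691 TPM. Gsn, gelsolin, was at 271 and 266 TPM against 352 and 327 TPM (0.34 ± 0.23), and passed with ERCC scaling (adjusted p = 0.0164).

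In the Arp2/3 complex 1 of 8 genes passed. Its 8 genes summed to 3887 and 3860 TPM in WT, against 4392 and 4152 TPM in Tet2 KO, with a median log2 change of 0.14. Arpc1a (chromosome 5, 145083830 to 145108761), the less abundant form of the ARPC1 subunit, rose from 77.2 and 79.1 TPM to 114.7 and 116.5 TPM (log2 change 0.56 ± 0.20, adjusted p = 0.0268). Plain limma, with neither trend nor robust estimation, gave an adjusted p of 0.0776. Arpc1b, the form that predominates in blood cells, stood at 616 and 611 TPM against 542 and 552 TPM (-0.16 ± 0.25, adjusted p = 0.611). The ratio of Arpc1b to Arpc1a was 7.98 and 7.73 in WT and 4.73 and 4.74 in Tet2 KO. Values of Arpc2, the most abundant subunit, were 848 and 839.6 TPM against 905 and 859 TPM, and Arpc3 was at 618 and 616 TPM against 801 and 799 TPM. Arpc4 had overlapping groups, at 189.95 and 188 TPM against 216 and 182 TPM, and Arpc5 was at 452.5 and 453.6 TPM against 535 and 517 TPM (0.21 ± 0.25). The core subunit Actr3 (ARP3) was at 585 and 577 TPM against 799 and 680.1 TPM, and its partner Actr2 (ARP2) at 501 and 497 TPM against 479.6 and 446 TPM. Neither passed on the TPM scale, and 49.8% of Actr3 windows recur in other genes. With ERCC scaling Actr3, Arpc1a, Arpc3 and Arpc5 passed as higher and none as lower.

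Of the 5 genes that encode WASP, subunits of the WAVE complex and HS1, 2 fell and 0 rose on the TPM scale. With ERCC scaling 2 others, Was and Nckap1l, passed as higher and 0 as lower. Was, the blood-cell WASP protein, stood at 92.3 and 94.8 TPM against 137 and 126 TPM, apart but not past the threshold (log2 change 0.49 ± 0.20, adjusted p = 0.0555). Cyfip1 (chromosome 7, 55841745 to 55932602), a scaffold of the WAVE complex that binds Rac, fell from 189 and 194 TPM to 86.6 and 95.6 TPM, by 1.07 ± 0.20 on the log2 scale (adjusted p = 0.000405). Nckap1l (HEM1), its blood-specific partner in that complex, stood at 271 and 272 TPM against 363 and 338 TPM and did not pass (0.37 ± 0.23). The ratio of Nckap1l to Cyfip1 thus went from 1.43 and 1.40 to 4.19 and 3.53. Wasf2 (WAVE2) was at 204 and 212 TPM against 195 and 210.4 TPM, with overlapping groups. Hcls1 (HS1; chromosome 16, 36934983 to 36963212), a leukocyte cortactin relative that stabilises branches, fell from 569.9 and 579 TPM to 317 and 271 TPM (-0.97 ± 0.24, adjusted p = 0.00336). With ERCC scaling neither fall passed (log2 change -0.47, adjusted p = 0.0729 for Cyfip1 and -0.38, adjusted p = 0.242 for Hcls1).

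Ena/VASP proteins differed within the family. Evl (chromosome 12, 108554720 to 108688516), less abundant than its relative Vasp in every library, had 53.8 and 53.6 TPM in WT, against 6.73 and 9.0 TPM in Tet2 KO. The Tet2 KO mean of 7.87 ± 1.61 TPM (SD, n = 2) was 6.83-fold lower. This was the deepest fall of the 40 (log2 change -2.64 ± 0.27, adjusted p = 8.16e-07). Vasp stood at 476 and 470.2 TPM against 743 and 474 TPM. Its replicate 1 of Tet2 KO was high and replicate 2 lay among WT, so the groups overlapped (0.33 ± 0.29, adjusted p = 0.380). The ratio of Vasp to Evl was 8.86 and 8.77 in WT and 110.4 and 52.7 in Tet2 KO.

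**Figure D2:**
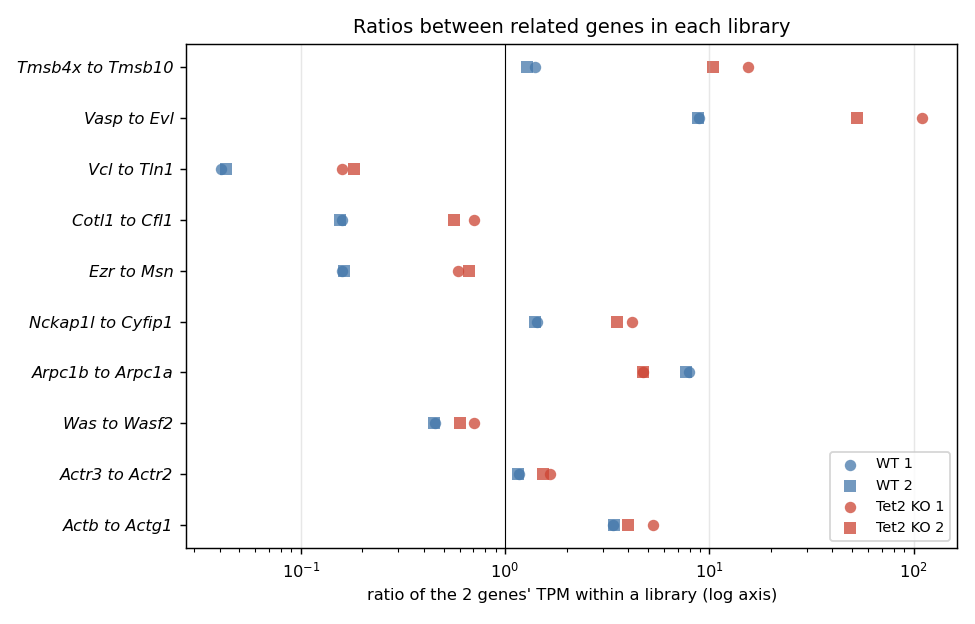
Ratio of TPM between 10 pairs of related genes (log axis), computed within each library, so that 1 scaling factor per library does not move it, although quantile normalization can; symbols as in the plot of levels. Tmsb4x to Tmsb10 and Vasp to Evl lie furthest apart between the groups, at 9.43-fold and 8.66-fold.

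Among links to the membrane and to adhesion sites Ezr and Vcl rose. Ezr (chromosome 17, 6738041 to 6782784), ezrin, rose from 182 and 187 TPM to 501 and 516 TPM (Tet2 KO mean 508 ± 10.9, SD, n = 2), a log2 change of 1.46 ± 0.23 (adjusted p = 9.40e-05). Moesin, the abundant ERM protein of leukocytes, did not pass: Msn stood at 1143 and 1151 TPM against 852 and 773 TPM (-0.50 ± 0.27, adjusted p = 0.137). The ratio of Ezr to Msn went from 0.159 and 0.163 to 0.588 and 0.667. Vcl (chromosome 14, 20929398 to 21033676), vinculin, which reinforces talin at adhesions and carries a CArG box in its promoter window, rose from 16.1 and 16.6 TPM to 55.1 and 57.0 TPM. Its log2 change was 1.72 ± 0.20 (adjusted p = 3.21e-06), the Tet2 KO libraries were only 3.39% apart, and the groups were far from touching. Tln1, talin itself, stood at 394 and 388 TPM against 346 and 314 TPM (-0.25 ± 0.23, adjusted p = 0.407). The ratio of Vcl to Tln1 was 0.0409 and 0.0428 in WT and 0.159 and 0.182 in Tet2 KO.

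Bundling and crosslinking genes followed no common direction. Lcp1, L-plastin, a leukocyte bundler, stood at 885 and 898 TPM against 1601 and 1159 TPM (0.61 ± 0.29, adjusted p = 0.0994). Lsp1 (chromosome 7, 142460809 to 142494867), a leukocyte filament-binding protein, fell from 684 and 676 TPM to 500.0 and 358 TPM, by 0.68 ± 0.27 (adjusted p = 0.0474). This was the weakest of the 12 calls, and it was lost with ERCC scaling (adjusted p = 0.831), quantile normalization and median centring and without trend and robust estimation. Flna, filamin A, which crosslinks filaments into nets, stood at 761 and 762 TPM against 590.2 and 587 TPM (-0.37 ± 0.25, adjusted p = 0.241).

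Of the myosin II genes the light chain Myl12a was higher. Myl12a (chromosome 17, 70993656 to 71002878), a regulatory light chain, rose from 192.4 and 191.6 TPM to 336 and 317 TPM (log2 change 0.76 ± 0.22, adjusted p = 0.0106), and 29.6% of its windows recur elsewhere, mainly in Myl12b. Myh9, the non-muscle heavy chain, stood at 1013 and 1022 TPM against 1304 and 1033 TPM (0.19 ± 0.28). The essential light chain Myl6 was at 715 and 720.04 TPM against 819 and 852 TPM (0.22 ± 0.26).

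Among Cdc42, Rac1, Rhoa and Dock2, signalling proteins that tell the machinery where to act, Dock2 passed and the others did not. Cdc42, which directs polarity, was the most abundant at 813 and 821 TPM against 718 and 673 TPM (-0.23 ± 0.26, adjusted p = 0.479). Rac1, which drives WAVE, stood at 498 and 484 TPM against 412 and 435 TPM, and Rhoa, which drives myosin II, at 607 and 616 TPM against 704 and 675 TPM. Dock2 (chromosome 11, 34226815 to 34783892), the Rac exchange factor of lymphocytes and neutrophils, fell from 87.6 and 86.8 TPM to 62.0 and 62.6 TPM (-0.48 ± 0.19, adjusted p = 0.0452). With ERCC scaling its log2 change was 0.11 (adjusted p = 0.605), and the call was also lost with quantile normalization, median centring and limma without trend and robust estimation.

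Vim, vimentin, the intermediate filament protein of mesenchymal and myeloid cells, was the next most abundant member after Actb in WT. It had 6137 and 6119 TPM in WT, against 3689 and 4661 TPM in Tet2 KO, and its rank among all mouse genes went from 7 in each WT library to 23 and 19. The groups did not overlap, but the log2 change of -0.56 ± 0.34 did not pass (adjusted p = 0.186), with ERCC scaling it was 0.034, and with quantile normalization it passed (-1.26, adjusted p = 0.0363).

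**Figure D3:**
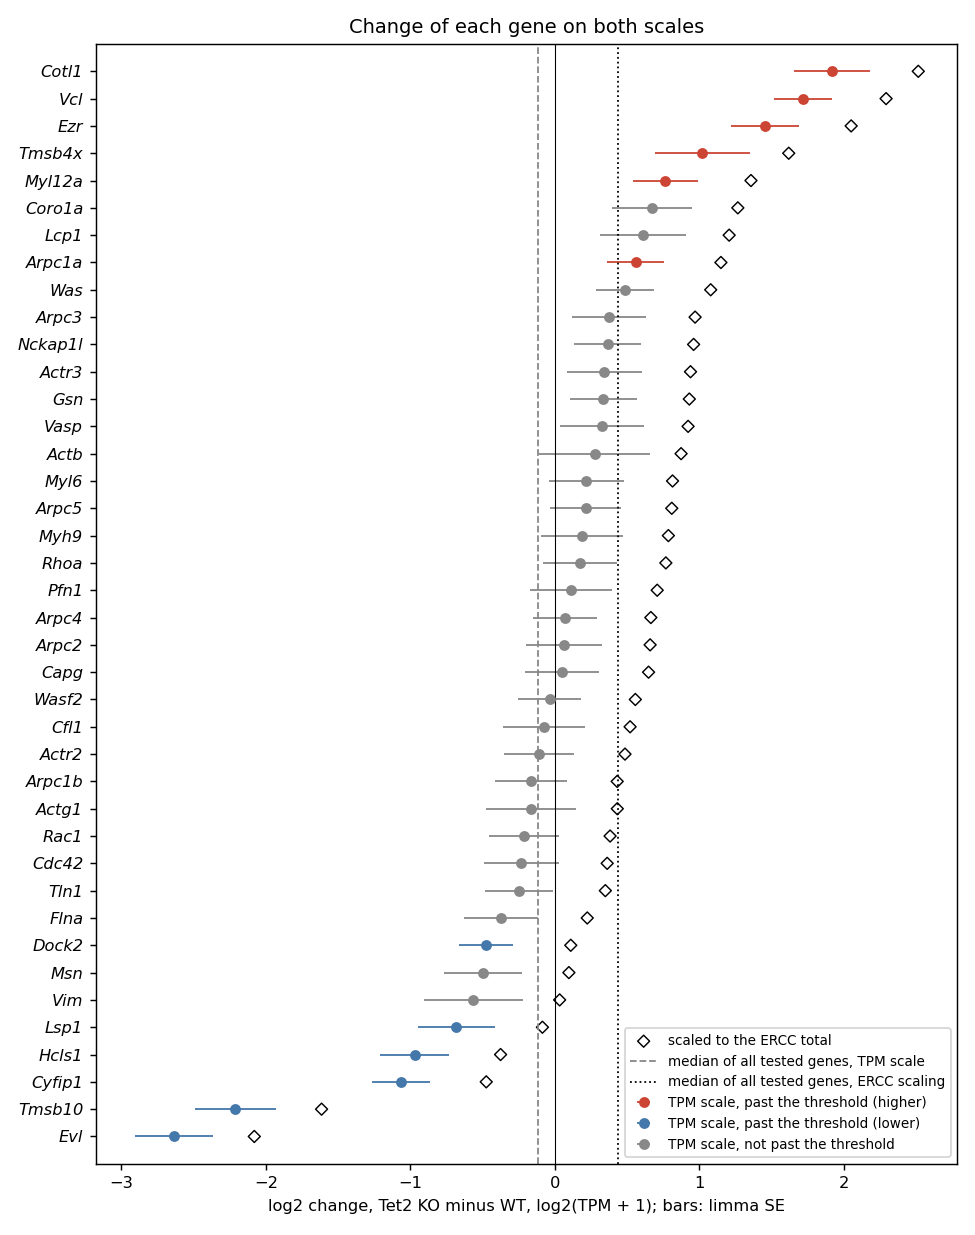
Log2 change of each gene, Tet2 KO minus WT on log2(TPM + 1), with limma standard errors (filled symbols), and the same change after scaling to the ERCC total (open diamonds); dashed and dotted lines mark the median of all tested genes on each scale, -0.12 and 0.43. Evl and Tmsb10 stay far below 0 on both scales, and Cotl1, Vcl and Ezr far above.

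Wider parts of the pathway, in 9 lists of 198 further genes, were counted in the same way. Of 176 tested, 63 rose and 36 fell, with a median log2 change of 0.23, and with ERCC scaling 100 passed as higher and 18 as lower. Of all tested genes 22.1% were called higher and 26.7% lower on the TPM scale, and 41.5% and 12.5% with ERCC scaling, and each list's counts below are to be read against these shares. The lists overlap in part, and examples come from the called genes with the largest changes in each list; not every such gene is printed.

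Of 24 tested relatives of the members, 11 passed as higher and 6 as lower (14 and 4 with ERCC scaling). Svil, supervillin, which links actin to the membrane, went from 4.08 and 4.19 TPM to 89.7 and 85.9 TPM (log2 change 4.11 ± 0.21, adjusted p = 2.07e-10). Nckap1, the widely expressed counterpart of Nckap1l, went from 2.72 and 2.55 to 48.7 and 53.7 TPM, and Dstn, destrin, a cofilin relative, from 76.3 and 77.6 to 465 and 486 TPM. Those that fell included Scin, a gelsolin relative (7.24 and 6.68 to 0.36 and 0.69 TPM), and Rhoc (97.9 and 96.8 to 19.6 and 33.3 TPM). Each of these 5 also passed with ERCC scaling.

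Formins, which build straight filaments, and other nucleators gave 3 higher calls and 1 lower call among 11 (7 and 0 with ERCC scaling). Diaph1 went from 186 and 187 TPM to 383 and 380.4 TPM, Jmy from 5.85 and 5.34 to 14.3 and 15.2 TPM, and Fmnl2 from 5.43 and 4.89 to 28.7 and 22.6 TPM. In capping, severing and monomer turnover 8 of 18 rose and 0 fell (12 and 0). Cttn, cortactin, the relative of the falling Hcls1, went from 0.36 and 0.32 TPM to 54.4 and 35.9 TPM (log2 change 5.08 ± 0.30, adjusted p = 4.61e-09), and the adducin Add3 from 18.5 and 19.7 to 78.7 and 94.3 TPM.

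Bundling, crosslinking and membrane linkage genes split into 5 higher and 6 lower of 19 (6 and 5 with ERCC scaling). Actn1, alpha-actinin 1, which crosslinks filaments and binds vinculin, had the largest rise of all these lists, from 10.0 and 10.8 TPM to 630.3 and 449.6 TPM (5.55 ± 0.23, adjusted p = 2.53e-10). Zyx, zyxin, another adhesion protein, went from 117 and 116 to 414 and 445 TPM. Falls included the filopodial bundler Fscn1, fascin (9.79 and 11.8 to 0.37 and 0.55 TPM), Swap70 (124 and 123 to 20.4 and 23.7 TPM) and the tropomyosin Tpm1 (127 and 128 to 24.0 and 25.9 TPM).

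WASP and WAVE partners gave 6 higher and 4 lower calls among 16 (8 and 2 with ERCC scaling). The adaptors Nck2 and Nck1 rose by 3.14 ± 0.32 and 1.45 ± 0.22 on the log2 scale, and Wipf1, which stabilises WASP, by 1.29 ± 0.24, whereas Cd2ap fell by 3.15 ± 0.30 and Fnbp1 by 2.29 ± 0.20.

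Integrins and their activators split into 9 higher and 10 lower of 30 (15 and 2 with ERCC scaling). Rasgrp2, which activates Rap1 upstream of integrins, went from 2.05 and 2.36 TPM to 56.9 and 43.6 TPM, and the leukocyte integrin chains Itgam and Itgal rose by 2.04 ± 0.26 and 1.43 ± 0.24. Itgb7, the gut-homing integrin chain, fell from 409 and 403 to 37.7 and 55.3 TPM (-3.12 ± 0.24, adjusted p = 6.29e-07). Itgam also marks neutrophils and other myeloid cells, and neutrophil genes moved with the groups as given above. Among 10 intermediate filament and lamina genes 4 passed as higher and 1 as lower (7 and 1 with ERCC scaling), including rises of Syne1, nesprin-1, from 0.14 and 0.21 to 35.7 and 23.1 TPM, Sun2, its partner in the nuclear envelope, from 109 and 109 to 368 and 272 TPM, and Lbr, the lamin B receptor, from 57.1 and 56.0 to 139 and 164 TPM.

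SRF, its MRTF cofactors and their named targets, members left out, gave 5 higher and 3 lower calls among 16 (11 and 2 with ERCC scaling). Srf stood at 22.9 and 23.0 TPM against 27.9 and 29.9 TPM and Mkl1 (MRTF-A) at 26.8 and 26.2 TPM against 28.3 and 27.5 TPM, and both passed only after ERCC scaling among the 4 scalings. Mkl2 (MRTF-B) fell from 16.5 and 17.4 TPM to 10.3 and 9.72 TPM (-0.71 ± 0.27, adjusted p = 0.0419), a call lost with ERCC scaling (adjusted p = 0.563). Targets moved both ways: Zyx and the immediate early genes Fosb and Egr1 rose, and Tpm1 and Tpm4 fell.

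**Figure D4:**
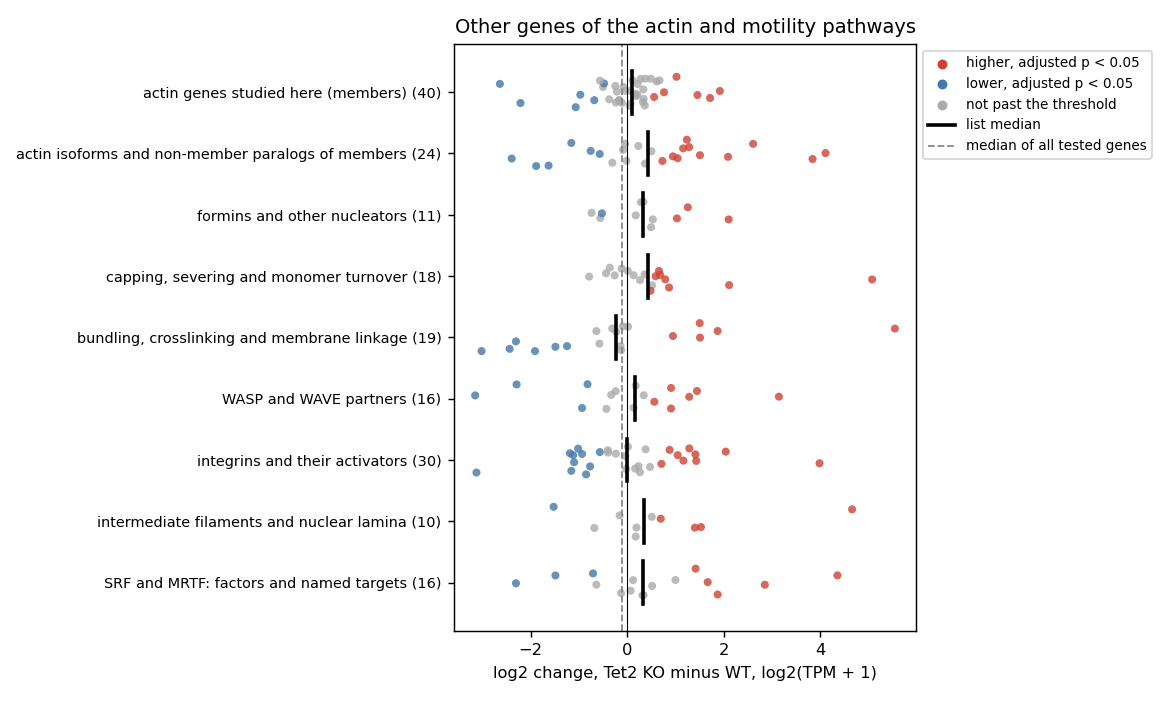
Log2 change (Tet2 KO minus WT, log2(TPM + 1)) of each tested gene in the 40 members and in 8 of the 9 lists with members left out; each point is a gene, coloured by limma's call, black bars are list medians and the dashed line is the median of all tested genes. The members gather near 0, while Actn1, Cttn, Syne1, Fosb and Svil lie beyond 4.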

How the data were processed

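RNA-seq values of 4 libraries (2 WT, 2 Tet2 KO, grouped by their titles) were used as deposited by the authors in TPM, each library summing to 1000000 over 24589 rows. Per the submitters' processing notes the tools were STAR and RSEM and the build mm10; no annotation or version is stated there. The 92 ERCC rows were left out of tests. Depth was estimated from the steps of low TPM in single-transcript genes, of which 67.6% to 71.6% lay within 0.2 of a whole read. Over 1967 such genes the WT pair was near sampling noise, so it was averaged into 1 sample.

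The test was limma (version 3.58.1, R 4.3.3), applied to log2(TPM + 1) with abundance trend and robust estimation, two-sided, over 11919 genes; Tet2 KO supplies all spread (1 against 2 samples), so WT is taken to vary as Tet2 KO does. Log2(TPM + 1) understates changes of low genes. The test was tried on simulated data. Coordinates are GENCODE M21 gene bounds (GRCm38, mm10), counted from 1. Recurring sequence was counted in 50-base windows of each member's longest coding transcript. Members, 9 pathway lists, 10 marker lists and tests were chosen with earlier results of these data known. Named pathway genes are up to 3 called genes per list and direction with the largest change and at least 5 TPM. Srf and Mkl1 were named after their values were seen. Replicate numbers did not pair the samples. Results of 1 pathway list and of 1 gene that the naming rule picks are not reported here.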

Additional observations from a re-analysis of the deposited data

How the results depend on the processing

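Of the 12 member calls, 12 held with a pseudocount of 0.1, a filter of 5 TPM, without either WT library and with both WT libraries as samples, 10 each with quantile normalization and median centring, 9 without trend and robust estimation and 8 with ERCC scaling. Without the filter on low values limma called 0 of 40, and 123 genes higher and 295 lower of all. Its adjusted p for the 12 ran from 0.0552 to 0.343. Unadjusted p was under 0.05 for 12 members, a set that differs in part from the 12 called. Arpc3 and Flna (both adjusted p = 0.0623) and Arpc1b (0.131) ranked ahead of the called Tmsb10 (0.143), Hcls1 (0.147) and Lsp1 (0.343). The cause of the loss of calls was not tested. ERCC scaling called 4942 genes higher and 1492 lower, and 16 and 2 members; the members' median was 0.69, or 0.24 with quantile normalization, and the log2 ratio of their summed TPM was 0.70, from 0.09. With both WT libraries as samples 13 members were higher. Adding the replicate block to that fit gave 12 higher; replicate deviations correlated at -0.011 over tested genes. Leaving out a library gave 2651 to 4321 higher and 3192 to 5674 lower calls of all genes, 6 to 22 higher and 6 to 16 lower members, members' medians of 0.02 to 0.19 and log2 ratios of sums of 0.03 to 0.16. The upper ends come from leaving out Tet2 KO replicate 1 (4321 and 4987; 18 and 16 members) or 2 (3974 and 5674; 22 and 16) with both WT libraries as samples; with WT as 1 sample those leave no residual degrees of freedom.

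Signs turned with ERCC scaling for Actg1 (0.43), Actr2 (0.49), Arpc1b (0.43), Cfl1 (0.52), Wasf2 (0.56), Msn (0.10), Tln1 (0.35), Flna (0.22), Dock2 (0.11), Rac1 (0.38), Cdc42 (0.36) and Vim (0.034). They turned with quantile normalization for Actb (-0.13), Actg1 (0.20), Cfl1 (0.42) and Wasf2 (0.015), with median centring for Cfl1 (0.023) and Wasf2 (0.062), and without Tet2 KO replicate 1, with both WT libraries as samples, for Arpc4 (-0.051) and Wasf2 (0.018). TPM holds no read counts per gene and depth was only estimated, so no counting intervals are given.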
